A study of Mus musculus with 52 samples.

Results

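The genes encoding the proteins of the cytosolic ribosome were followed across 13 mouse kidney clones, grown with serum or starved of serum so that they formed primary cilia. The members were all genes whose symbol begins with Rpl or Rps and a digit, or with Rplp and a digit, without the S6 kinases (Rps6k). This pattern takes 94 of the 24421 gene symbols counted. Of the 94, 76 encode subunit proteins (43 of the large subunit, 30 of the small subunit and 3 of the acidic stalk), 10 are paralogues of subunit genes, 7 carry a pseudogene symbol, and Rps19bp1 encodes a separate protein that only matches the pattern. A further 4 subunit genes with other kinds of symbol, Rpsa, Fau and Gnb2l1 among them, are described apart.

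The cells were Cilia-APEX-IMCD3, a line from the inner medullary collecting duct of the mouse kidney. By the study's methods, the clones, controls included, were grown from single sorted cells after transfection with the cytosine base editor BE4-Gam. This enzyme changes C to T without cutting both DNA strands, and the control clones received a guide RNA plasmid without a target. The methods do not name the control clones, and the title of clone AB lacks the letters BE that open those of the other non-ciliated clones. The mutant clones carry missense changes in Wdr34 or Wdr60, 2 intermediate chains of the dynein-2 motor that moves cargo inside cilia. The labels call them homozygous mutants and name no allele for the ciliated Wdr34 clones. Each mutant line is a single clone, and 1 edited line of each gene carries a further heterozygous change by the study's methods. The non-ciliated group held control clones AB, 1, 2 and 3 and mutant clones Wdr34 and Wdr60. The ciliated group held control clones D8, H12, A4 and G7 and mutant clones Wdr34-1, Wdr34-3 and Wdr60. Ciliated cells were kept in 0.2% serum for 50 h by the study's methods and non-ciliated cells in 10% serum, although the labels give 10% for all 52 libraries. Each clone was sequenced as 4 technical replicate libraries, so the clone, with its 4 libraries summed, was the unit of every test. The study's text counts 4 control and 3 mutant clones, fewer than the 8 and 5 sequenced here over both states. The Wdr60 line and 1 of the Wdr34 lines would then stand in both states, and the control clones of the 2 states may be the same 4 lines under other names. The labels do not say which ciliated Wdr34 clone recurs and link no control clone of one state to one of the other. Wdr60 is thus the 1 line that its name pairs across the states. By the study's text, the Wdr34 mutant with the further heterozygous change was not among the non-ciliated cells analysed. The non-ciliated Wdr34 clone would then carry the other Wdr34 allele. A line is counted once in each state, which gives the 13 clones, and the fit treated all 13 as unrelated, so the p-values of the state comparisons do not allow for lines present in both states. State and serum as the methods give it cannot be told apart. The labels give no dates of sequencing, but by the study's text 1 Wdr34 mutant was made only after the non-ciliated cells had been sequenced. At least that ciliated clone was thus sequenced later, and for the other ciliated clones the sources used here do not say. Where the ciliated clones were sequenced in a later round, state and round cannot be told apart either.

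A ribosome is built from ribosomal RNA and one copy of most ribosomal proteins, and its assembly in the nucleolus takes a large share of a growing cell's resources. In mammals most of the messenger RNAs for these proteins start with a cytosine followed by a run of pyrimidines, the terminal oligopyrimidine or TOP motif, through which mTORC1 and the binding protein Larp1 control their translation and stability when growth factors or nutrients are withdrawn. Each gene also has many processed pseudogenes with a near-identical sequence, so short reads from one gene can match several places in the genome.

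The start sites of some of the genes described below are given here to show how members with and without a pyrimidine run look around this position. Each sequence is 30 bases of the coding strand centred on the annotated start, from RefSeq (GRCm38.p6), and capitals mark a run of at least 8 C or T bases.
Rpl35: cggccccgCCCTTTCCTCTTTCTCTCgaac
Rplp2: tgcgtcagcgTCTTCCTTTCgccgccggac
Rpl4: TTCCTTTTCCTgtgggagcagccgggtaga
Rps6: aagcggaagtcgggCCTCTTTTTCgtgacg
Rplp0: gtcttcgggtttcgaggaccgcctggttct
Rps2: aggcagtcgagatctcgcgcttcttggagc
The windows lie at chr2:39005117-39005146 (minus strand) for Rpl35, chr7:141447636-141447665 (plus strand) for Rplp2, chr9:64173372-64173401 (plus strand) for Rpl4, chr4:86857353-86857382 (minus strand) for Rps6, chr5:115559452-115559481 (plus strand) for Rplp0 and chr17:24720048-24720077 (plus strand) for Rps2. Start windows were found for 56 of the subunit genes, 66 windows in all. A run of 8 or more C or T within 20 bases of the start, on either side, was present in 29 of these windows (43.9%), against 16.0% of all 32851 windows. These counts also take runs that end before the annotated start. The run marked in Rpl4 is of this kind and would not be in a transcript that begins at that start. The letters CGGAAG, the core read by ETS family factors, were present on either strand of the 300-base window in 41 of the 66 (62.1%), against 16.9% of all windows. Of the 66 windows, 48 were centred on the first base of the gene as RefSeq spans it and 18 on a start inside that span. The Rps2 window was centred on base 24720063, 1942 bases inside the span, and the upstream start of Rps2 was not examined. The start used in these cells is not known, so a window without the run says only that the letters are not there. Among the members called lower below are genes with the run in the window (Rpl35 and Rplp2) and genes without it there (Rplp0 and Rps2).

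Library totals ranged from 14816218 to 28084979 counts and overlapped between the 4 groups. All 94 symbols matched RefSeq. Of the members, 86 had enough counts to be tested (75 subunit genes, 5 paralogues, 5 pseudogene symbols and Rps19bp1). A count of 0 in all 52 libraries was listed for 6 members, namely Rpl26, Rpl10l, Rpl39l, Rpl34-ps1, Rplp2-ps1 and Rps27rt. Rpl3l had 24 counts and Rps4l 6 counts over all libraries, and neither was tested. Rpl26 encodes a large-subunit protein found in every ribosome, and its 0 does not show that the transcript was absent. Wdr34 and Wdr60 were detected in every clone, which checks little for missense changes. Wdr34 was at 26.3 ± 3.75 CPM (counts scaled to library size, ± SD) in non-ciliated control, 30.6 ± 3.09 in non-ciliated mutant, 40.4 ± 5.34 in ciliated control and 39.2 ± 15.3 in ciliated mutant clones.

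The labelled cell type was checked against epithelial markers. Pax8 (150 to 414 CPM) and Pax2 (80.1 to 303 CPM), transcription factors of the renal tubule and collecting duct, were present in all clones. Aqp2, the vasopressin-regulated water channel of the collecting duct, reached only 0.0152 CPM. The adhesion genes Cdh1 and Epcam were at 4.26 and 2.89 CPM in control clone 2 and at 13.7 and 13.5 CPM in control clone G7, whereas Cdh1 was between 244 and 649 CPM and Epcam between 184 and 836 CPM in the other 11 clones. These markers also differed with state. In the other control clones Cdh1 was at 256 to 390 CPM without and at 614 to 649 CPM with starvation, and Epcam at 184 to 379 and at 635 to 836 CPM. Krt7, a keratin of simple epithelia, was at 728 to 918 CPM in the other non-ciliated and at 275 to 421 CPM in the other ciliated control clones, and at 3.78 CPM in clone 2 and 3.80 CPM in clone G7. In mutant clones Cdh1 was at 244 and 306 CPM without and at 609 (Wdr34-1), 301 (Wdr34-3) and 402 CPM (Wdr60) with starvation. In the same order of clones, Epcam was at 201 and 349 CPM without and at 818, 287 and 806 CPM with starvation. Krt7 was at 635 and 869 CPM without and at 267, 62.6 and 349 CPM with it. Clone Wdr34-3 was thus the lowest ciliated mutant for each of these markers. The part of these state differences in the results was not tested. Clones 2 and G7 also had the lowest share of ribosomal protein counts in their control groups, and the part of their low Cdh1 and Epcam in the results was not tested, beyond the values without both clones given below. Summed leukocyte and endothelial markers stayed at or under 0.899 and 0.141 CPM. The fibroblast markers summed to 1.34 to 5.52 CPM, except in clone Wdr34-3 (31.7 CPM), where Dcn reached 29.2 CPM.

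Ribosomal protein genes took a larger share of all counts in the non-ciliated clones. The share was 1.73 ± 0.255% (SD, n = 4) in non-ciliated control clones and 2.14 ± 0.0313% (n = 2) in non-ciliated mutant clones, against 1.21 ± 0.0800% (n = 4) in ciliated control and 1.21 ± 0.232% (n = 3) in ciliated mutant clones. By clone, the non-ciliated controls stood at 2.05 (AB), 1.76 (1), 1.43 (2) and 1.69% (3), and the non-ciliated mutants at 2.12 (Wdr34) and 2.16% (Wdr60). The ciliated controls stood at 1.21 (D8), 1.20 (H12), 1.30 (A4) and 1.11% (G7), and the ciliated mutants at 1.33 (Wdr34-1), 0.939 (Wdr34-3) and 1.35% (Wdr60). With the libraries of a clone summed, every non-ciliated clone was thus above every ciliated clone. The smallest gap was between control clone 2 and the ciliated Wdr60 clone. As a sum over the members, this share is a description and was given no test. In bulk RNA, a lower share of a transcript and a higher share of all the others cannot be told apart.

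**Figure D1:**
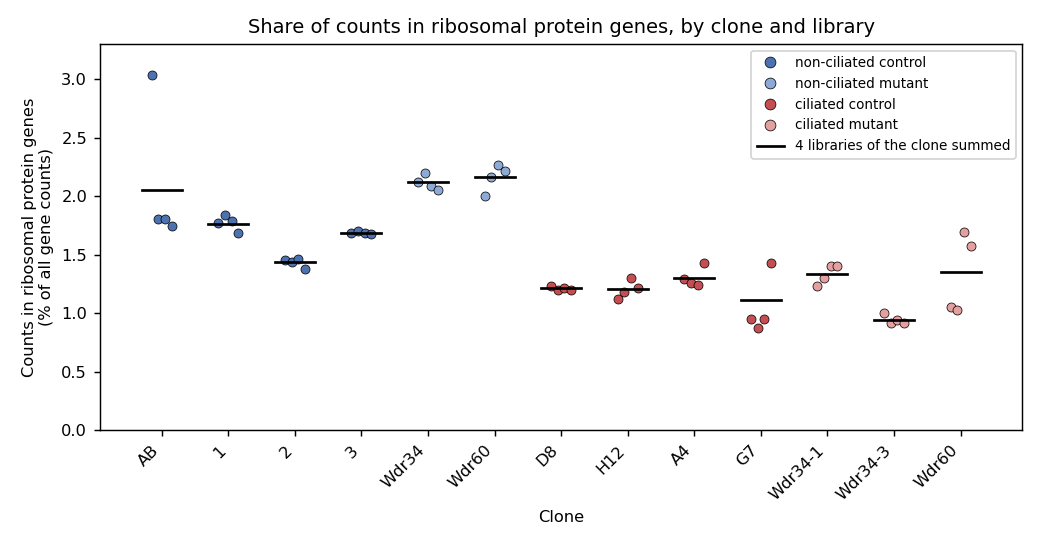
Percent of all gene counts that fell in the 94 ribosomal protein genes (vertical axis) for each of 13 clones (horizontal axis, coloured by group). Points are the 4 technical replicate libraries of a clone and lines the 4 libraries summed; the ciliated clones lie between 0.939 and 1.35% and the non-ciliated clones between 1.43 and 2.16%.

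The technical replicates of a clone did not always lie together. In clone AB, replicate 1 held 3.04% and the other libraries 1.74 to 1.81%, and in clone G7, replicate 4 held 1.43% and the other libraries 0.871 to 0.953%. The ciliated Wdr60 clone was at 1.05 and 1.03% in replicates 1 and 2 and at 1.69 and 1.57% in replicates 3 and 4. Its replicates 3 and 4 lay above every library of control clone 2 (1.37 to 1.47%), so the states overlapped by library. The Wdr60 libraries were not among those left out below. Replicate 1 of clone AB and replicate 4 of clone G7 were then left out, a choice made after seeing the data. Without these 2 libraries the share was 1.78% in clone AB and 0.924% in clone G7. It was 1.67 ± 0.161% in non-ciliated and 1.16 ± 0.164% in ciliated control clones (SD, n = 4). All comparisons were also fitted without them, and the values stand beside each comparison. Of the named calls, those of Rplp2 and Rpl11 in control clones and of Rpl30 and Rpl11 in mutant clones were lost in that fit (edgeR adjusted p = 0.0548 to 0.0931). The levels printed per clone include both libraries.

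The counts were concentrated in few members. Rpl8, Rplp0, Rpl4, Rpl41 and Rps3 held 39.5% of all member counts, and the 20 highest members held 81.2%. Per kilobase of transcript, the highest subunit genes over the 13 clones were Rpl41 (1825 ± 561 CPM per kb, SD), Rpl8 (1754 ± 627), Rps15 (1168 ± 255), Rplp0 (1081 ± 534) and Rpl4 (933 ± 238). Rpl8 lay above Rps15 in 13 of 13 clones. The other neighbours changed places between clones, with Rpl41 above Rpl8 in 9, Rps15 above Rplp0 in 8 and Rplp0 above Rpl4 in 7 of the 13. At the other end were Rpl30 (1.45 CPM per kb), Rps13 (4.96), Rps29 (5.12) and Rps27 (5.61), although the protein products of all these genes are present in equal number in a ribosome.

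Sequence shared with other genes differed widely between members. In Rpl8, 92.1% of the 50-base windows of the transcript occurred in no other annotated gene, in Rplp0 58.2%, in Rps2 23.2%, in Rpl5 6.16% and in Rps27 1.35%. The 22 subunit genes with 60% or more such windows had a median level of 268 CPM per kb, the 37 between 20 and 60% a median of 30.5 and the 17 under 20% a median of 25.0. Across the 75 subunit genes with a count, Spearman's rho between level and the share of such windows was 0.345, a description over genes that share libraries. Pairs of near-identical copies also split unevenly. The retrogene Rpl37rt (8.98% of windows its own) stood at 1757 CPM per kb against 15.8 for Rpl37, and the pseudogene Rpl14-ps1 (21.7%) at 473 against 171 for Rpl14. How reads that match several genes were counted is not given in the sources used here, so levels of such members, and of pseudogene symbols in general, are uncertain between copies.

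**Figure D2:**
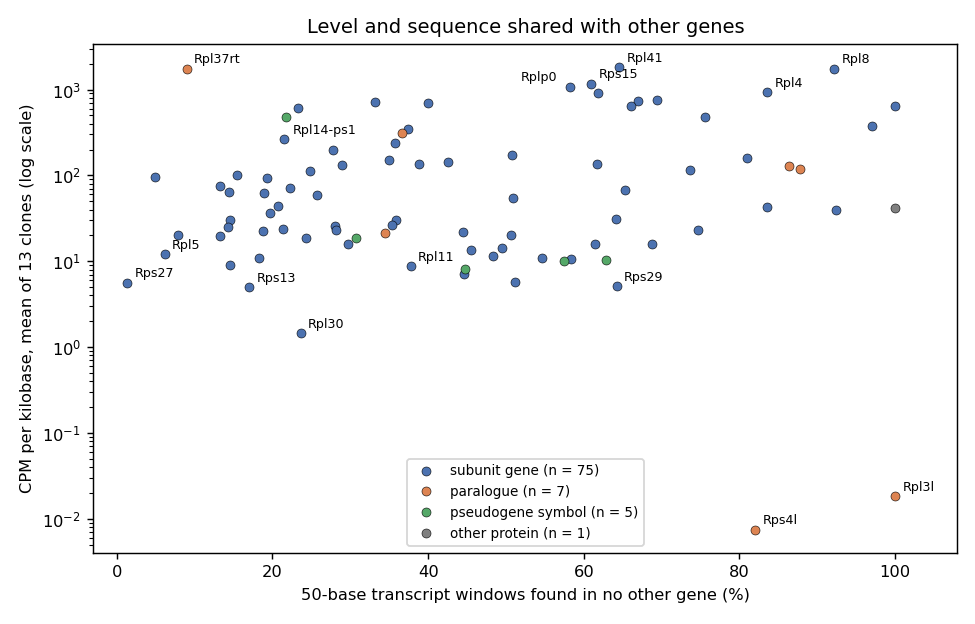
Mean level over 13 clones in CPM per kilobase of transcript (vertical axis, log scale) against the percent of 50-base transcript windows found in no other gene (horizontal axis), for members with a count, coloured by class. Genes with mostly shared sequence, such as Rps27 and Rpl5, lie low, while Rpl8 has mostly sequence of its own and lies high; Rpl37rt is high with few windows of its own.

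The first comparison asked how the genes differ between the ciliated and the non-ciliated state without a mutation. In control clones, 23 of the 86 tested members were called lower in the ciliated state and 2 higher (edgeR quasi-likelihood test, Benjamini-Hochberg adjusted over all genes, 4 clones against 4). Over all 13994 genes tested, 9.46% were called lower and 8.98% higher. The stalk genes Rplp0, Rplp1 and Rplp2, the small-subunit genes Rps2, Rps25 and Rps7 and the large-subunit genes Rpl35, Rpl27 and Rpl8 were among those that fell. The members' log2 fold changes, ciliated minus non-ciliated, ran from -1.98 to 1.01 with a median of -0.48, against 0.02 for all genes, and 77 of the 86 lay below 0, against 48.4% of all genes. All ciliated control clones were below all non-ciliated ones for 28 members and above them for 2, where 11.5% of all genes lay without overlap in the lower direction and 10% in the higher.

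The count of members called lower depended on single clones. It was 10 without non-ciliated control clone 1, 12 without AB, 13 without clone 3 and 13 without ciliated control clone H12. The genes called lower over all genes were 1324 with every clone and 648, 1034, 847 and 897 in these 4 fits. Without the libraries that stand apart the count of members was 20, with a median of -0.45, and without clones 2 and G7 it was 28. The median remained between -0.56 and -0.39 with any one clone left out.

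By role, 9 of 42 large-subunit genes, 5 of 30 small-subunit genes and all 3 stalk genes were called lower in control clones, with median log2 fold changes of -0.48, -0.33 and -0.74. In the higher direction 1 small-subunit gene was called. Of the 5 tested paralogues 3 were lower, and of the 5 tested pseudogene symbols 2 were lower and 1 higher. These counts stand beside 9.46% of all genes called lower and 8.98% called higher.

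The stalk is the flexible arm of the large subunit that recruits elongation factors, and Rplp0 is its base. Rplp0 (chr5:115559467-115563729, plus strand) stood at 2142, 1917, 1295 and 1966 CPM in the non-ciliated control clones AB, 1, 2 and 3 and at 1046, 816, 950 and 696 CPM in the ciliated control clones D8, H12, A4 and G7. The non-ciliated mutant clones Wdr34 and Wdr60 were at 2740 and 2661 CPM and the ciliated mutant clones Wdr34-1, Wdr34-3 and Wdr60 at 947, 791 and 1110 CPM. Neither genotype's ranges overlapped between the states, and clone 2 was the lowest and the mutants the highest of the non-ciliated clones. The log2 fold change of Rplp0 was -1.06 (SE 0.18, edgeR adjusted p = 0.00448) in control clones, and the call held under all 28 alternatives. In every comparison the 28 include fits with technical replicate libraries as samples and fits without clones from outside that comparison. A tally out of 28 is thus not a count of 28 independent checks.

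The other stalk proteins, Rplp1 and Rplp2, bind to Rplp0 as dimers. Rplp1 averaged 381 ± 31.7 CPM in non-ciliated and 270 ± 47.0 CPM in ciliated control clones (log2 fold change -0.49, SE 0.14, edgeR adjusted p = 0.0332). Rplp2 averaged 67.5 ± 11.2 CPM in non-ciliated and 40.5 ± 6.43 CPM in ciliated control clones (log2 fold change -0.74, SE 0.23, edgeR adjusted p = 0.0433). Both calls were near the threshold. The Rplp1 call was kept by 16 of the 28 alternatives and lost without any one of AB, 1, 3, D8, H12 or A4 (adjusted p = 0.0510 to 0.0811). The Rplp2 call was kept by 10 and lost without any one of 11 clones, all but ciliated mutants Wdr34-3 and Wdr60 (adjusted p = 0.0520 to 0.104). With limma's voomLmFit the adjusted p was 0.159 for Rplp1 and 0.548 for Rplp2. Neither gene overlapped between the 2 control groups.

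Of the small-subunit genes, Rps2 had the smallest adjusted p of all members. It encodes a protein near the entry of the messenger RNA channel and lies at chr17:24718121-24721927 (plus strand). Rps2 stood at 839, 898, 775 and 749 CPM in the non-ciliated control clones AB, 1, 2 and 3 and at 335, 287, 345 and 297 CPM in the ciliated control clones D8, H12, A4 and G7. In mutant clones it stood at 1188 (Wdr34) and 928 CPM (Wdr60) without and at 313 (Wdr34-1), 248 (Wdr34-3) and 354 CPM (Wdr60) with serum starvation. The 2 states were far apart in either genotype, and clone 2 lay inside its group for this gene. The log2 fold change was -1.37 (SE 0.14, edgeR adjusted p = 0.000744) in control clones, and all 28 alternatives kept the call.

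Rps25, a protein of the head of the small subunit, fell from 111 ± 32.3 to 50.2 ± 9.77 CPM in control clones (log2 fold change -1.15, SE 0.23, edgeR adjusted p = 0.00787). Clone 2 was at 62.8 CPM and the other non-ciliated control clones at 125 to 130 CPM, so this clone lay just above the highest ciliated control clone (61.8 CPM).

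In the large subunit, Rpl35 and Rpl27 had the largest log2 fold changes of the subunit genes. Rpl35, which lies near the exit of the peptide tunnel, stood at 190, 183, 70.9 and 170 CPM in the non-ciliated control clones AB, 1, 2 and 3 and at 41.2, 27.3, 47.3 and 39.8 CPM in the ciliated control clones D8, H12, A4 and G7. In mutant clones it stood at 153 and 150 CPM without starvation and at 40.0 (Wdr34-1), 11.3 (Wdr34-3) and 44.5 CPM (Wdr60) with it. Clone 2 had less than the other non-ciliated clones and clone Wdr34-3 less than the other ciliated ones, yet the states did not overlap. The log2 fold change was -1.98 (SE 0.41, edgeR adjusted p = 0.00875). Only 4.91% of the windows of Rpl35 are its own, and 68.3% of its exon bases are overlapped by Arpc5l or Wdr38, so reads of these genes cannot be told apart from those of Rpl35 where they overlap.

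Rpl27 (chr11:101442245-101445596, plus strand) stood at 23.8, 41.1, 22.1 and 26.9 CPM in the non-ciliated control clones AB, 1, 2 and 3 and at 12.7, 8.96, 10.7 and 8.63 CPM in the ciliated control clones D8, H12, A4 and G7. Clone 1 was the highest, and no ciliated clone reached the lowest non-ciliated one. The log2 fold change was -1.47 (SE 0.23, edgeR adjusted p = 0.00288), and the call of Rpl27 and that of Rpl35 held under all 28 alternatives. The transcribed pseudogene Rps15a-ps4 had a log2 fold change as large as that of Rpl35 (-1.98, SE 0.35, edgeR adjusted p = 0.00463), from 4.30 to 7.78 CPM in non-ciliated to 1.10 to 1.77 CPM in ciliated control clones.

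Of the other abundant members, Rpl8, close to the peptidyl transferase centre, fell from 1756 ± 215 to 1106 ± 102 CPM in control clones (log2 fold change -0.67, SE 0.16, edgeR adjusted p = 0.0148). Rpl41, the shortest ribosomal protein, fell from 1063 ± 184 to 712 ± 71.7 CPM (log2 fold change -0.58, SE 0.16, edgeR adjusted p = 0.0280). Rpl4 was at 1666 ± 266 and 1195 ± 183 CPM and missed the threshold (log2 fold change -0.48, edgeR adjusted p = 0.0576), which 9 alternatives passed. Rps15, the third in level per kilobase, was at 572 ± 61.0 and 519 ± 61.2 CPM, with overlapping clones (log2 fold change -0.14, SE 0.14, edgeR adjusted p = 0.517). Among 28 alternatives, 25 kept the Rpl8 call and 21 the Rpl41 call. The Rpl8 call was lost without non-ciliated clone 1 (adjusted p = 0.0514) and the Rpl41 call without AB, 1, D8 or H12 (adjusted p up to 0.0783). With voomLmFit the adjusted p was 0.0906 for Rpl8 and 0.273 for Rpl41.

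**Figure D3:**
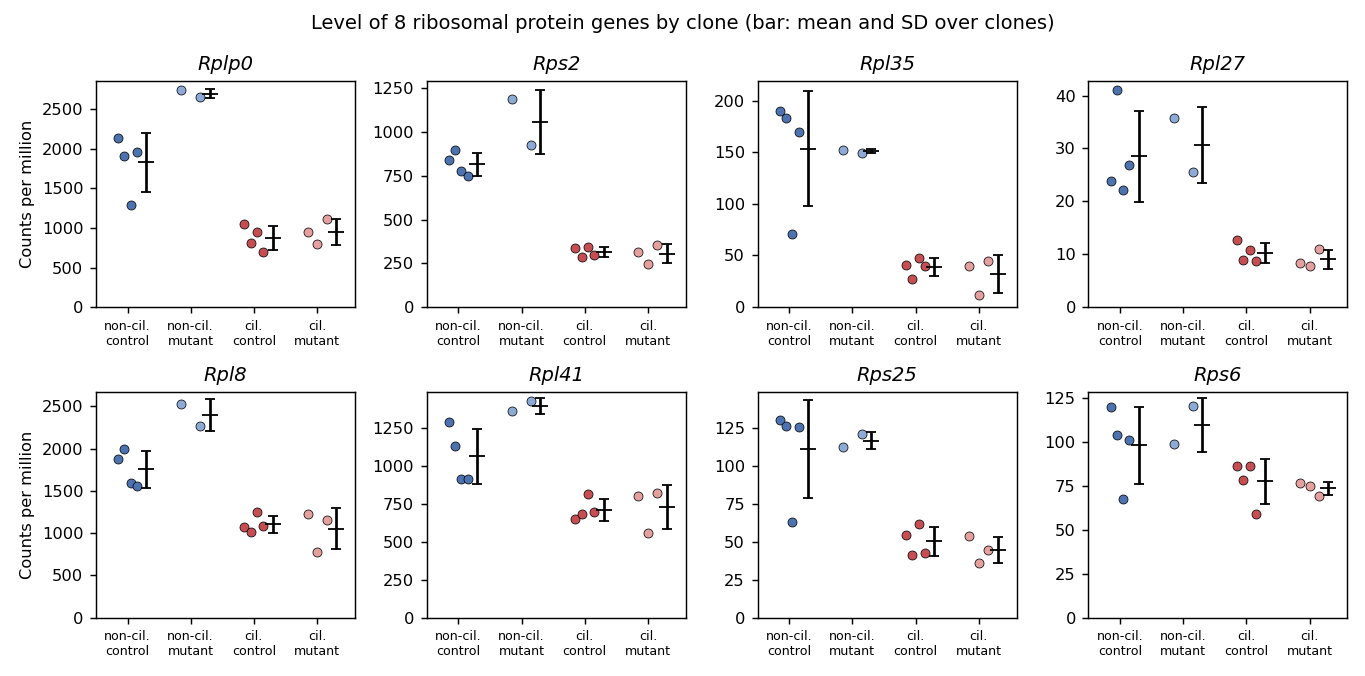
Level of 8 ribosomal protein genes in CPM (vertical axes, starting at 0) for each clone (points) in the 4 groups, with the mean and SD over clones beside them (bars). Rplp0, Rps2, Rpl35, Rpl27, Rpl8 and Rpl41 are lower in both ciliated groups, Rps25 is lower in both with clone 2 close to the ciliated ones, and Rps6 overlaps between the control groups.

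Against this direction, 2 members were called higher in ciliated control clones. One of them, the pseudogene Rps15a-ps6, had a log2 fold change of 1.01 (SE 0.31, edgeR adjusted p = 0.0436) with overlapping clones. The call was kept by 12 of the 28 alternatives and lost without any one of 10 clones, all but G7 and ciliated mutants Wdr34-1 and Wdr34-3. With voomLmFit the adjusted p of Rps15a-ps6 was 0.248.

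Several members with known roles outside translation were also followed. Rpl5 and Rpl11, which join the 5S ribosomal RNA and bind the p53 inhibitor Mdm2 when assembly is disturbed, differed in call. Rpl11 fell from 8.55 ± 0.456 to 5.22 ± 0.929 CPM (log2 fold change -0.71, SE 0.20, edgeR adjusted p = 0.0287). This call was kept by 15 of the 28 alternatives and lost without any one of AB, 1, 3, D8, A4 or G7 (adjusted p = 0.0536 to 0.0736). With voomLmFit the adjusted p of Rpl11 was 0.499. Rpl5 was at 28.7 ± 8.23 and 18.9 ± 6.84 CPM, with overlapping clones (log2 fold change -0.61, SE 0.33, edgeR adjusted p = 0.220). Rps6, the substrate of S6 kinase, was at 97.9 ± 22.0 and 77.4 ± 12.9 CPM, also with overlapping clones (log2 fold change -0.34, SE 0.18, edgeR adjusted p = 0.202). A difference between the genes within each pair was not tested.

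The same comparison in mutant clones gave more calls and larger values. Of the 86 members, 34 were called lower in ciliated mutant clones and 0 higher (edgeR, 3 clones against 2), where 7.53% of all genes were called lower and 5.32% higher. The median log2 fold change of the members was -0.80, against 0.04 for all genes, and 82 members lay below 0, against 47.5% of all genes. All ciliated mutant clones were below both non-ciliated ones for 72 members and above them for 0, against 26.8% of all genes in the lower and 25.4% in the higher direction. Called lower were 15 of 42 large-subunit genes, 11 of 30 small-subunit genes and all 3 stalk genes, with medians of -0.84, -0.72 and -1.38.

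This count also rested on single clones. It was 1, the call of Rps2, without the non-ciliated Wdr34 clone and 10 without the non-ciliated Wdr60 clone, each of which leaves a group of 1 whose spread is assumed to be that of the other groups, and 16 without ciliated clone Wdr34-3. The members' median in these fits was -0.74, -0.85 and -0.64. Over all genes the lower calls went from 1054 to 28, 412 and 747 in the same fits. Without the libraries that stand apart the members called lower were 29 and the median -0.80. With library size alone as the scaling, which moves the median of all genes to 0.18, the count was 22, the members' median -0.67 and the lower calls over all genes 745.

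Rps2 had the smallest adjusted p among members here too (log2 fold change -1.79, SE 0.17, edgeR adjusted p = 0.00101), and kept its call under all 28 alternatives. Rpl35 (log2 fold change -2.24, SE 0.51, edgeR adjusted p = 0.0182), Rpl27 (-1.77, SE 0.29, adjusted p = 0.00642) and Rplp0 (-1.51, SE 0.23, adjusted p = 0.00523) were again among the members that fell. The alternatives that lost these 3 calls were those without the non-ciliated Wdr34 clone (Rpl27 and Rplp0, and Rpl35 with an adjusted p of 0.136), without the non-ciliated Wdr60 clone (Rpl35) and with only the compared groups in the fit (Rpl35). Rpl30, a large-subunit protein, was at 2.02 and 1.66 CPM in non-ciliated and at 0.583, 0.573 and 0.703 CPM in ciliated mutant clones (log2 fold change -1.57, SE 0.44, edgeR adjusted p = 0.0387). Its counts are low, with a median of 11 per library, and 14 of the 28 alternatives kept the call, which was lost without any one of the 5 mutant clones, control clone 3 or A4 (adjusted p = 0.0510 to 0.247). With voomLmFit the adjusted p of Rpl30 was 0.297, and 34.7% of its exon bases are overlapped by D730044K07Rik. Rps7, which also binds Mdm2, fell from 21.7 ± 0.963 to 7.54 ± 3.55 CPM (log2 fold change -1.53, SE 0.37, edgeR adjusted p = 0.0224). Its lowest clone was Wdr34-3 at 3.67 CPM. The Rps7 call was lost without either non-ciliated mutant clone or without Wdr34-1 (adjusted p = 0.0555 to 0.162).

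Rplp2 (log2 fold change -1.38, SE 0.29, edgeR adjusted p = 0.0135) and Rplp1 (-1.07, SE 0.18, adjusted p = 0.00685) completed the stalk. Rpl8 (-1.19, SE 0.20, adjusted p = 0.00677), Rpl41 (-0.94, SE 0.20, adjusted p = 0.0148), Rpl4 (-0.79, SE 0.20, adjusted p = 0.0293) and Rps15 (-0.68, SE 0.18, adjusted p = 0.0314) were all called lower in the mutant clones, so each of the 5 subunit genes of highest level per kilobase was called here. The Rpl41 and Rplp2 calls were lost without either non-ciliated mutant clone (adjusted p up to 0.127), and those of Rpl4 and Rps15 also without Wdr34-3 or ciliated Wdr60 (adjusted p up to 0.176 and 0.234). With voomLmFit the adjusted p was 0.172 for Rpl41, 0.295 for Rplp2 and 0.354 for Rps15. Rpl5 and Rps6 had log2 fold changes of -0.88 and -0.58 (edgeR adjusted p = 0.178 and 0.108).

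The members called lower in control clones and in mutant clones shared 21 genes, 91.3% of the 23 and 61.8% of the 34. Over all genes the shared lower calls were 66.3% of the 1324 and 83.3% of the 1054. The 2 comparisons share no library, but they share the state and, as the methods give it, the serum. A sequencing round that goes with state would be shared as well.

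**Figure D4:**
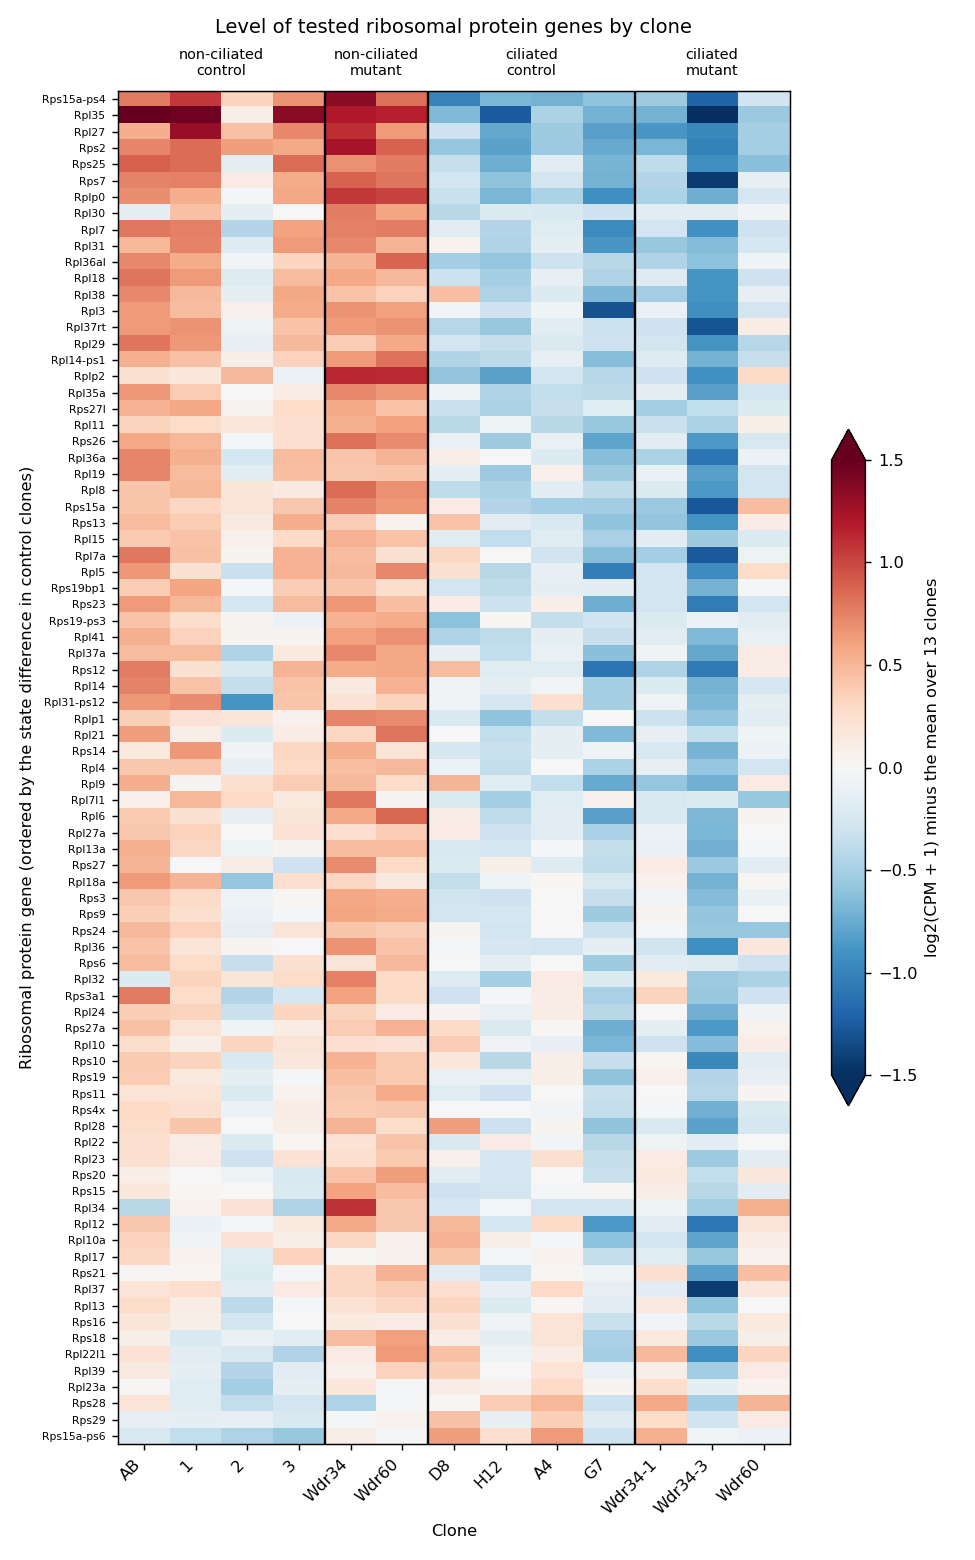
Level of 83 of the tested genes (rows, ordered by the log2 fold change of the state in control clones) in each of 13 clones (columns), as log2(CPM + 1) minus the gene's mean over the clones; red is above and blue below that mean. Most rows are red in the non-ciliated and blue in the ciliated clones, with paler columns for control clone 2 and a dark blue column for ciliated Wdr34-3.

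Paralogues that can replace a subunit protein in some ribosomes were compared as their share of the counts of the pair. In control clones Rpl22l1 made up 4.18 ± 0.647% of Rpl22 and Rpl22l1 without and 5.34 ± 1.56% with starvation (exact 2-sided permutation p = 0.229, adjusted over 6 pairs p = 0.583). Rpl7l1 made up 20.4 ± 7.69 and 25.0 ± 7.34% of its pair with Rpl7 (exact permutation p = 0.429, adjusted p = 0.583). Rps27l held 97.8 ± 0.722 and 97.3 ± 0.837% of its pair with Rps27, and Rpl36al 97.3 ± 0.405 and 96.9 ± 0.991% of its pair with Rpl36a (exact permutation, adjusted p = 0.583 for each). In these last pairs nearly all counts fell on the copy with the less usual name, and only 1.35% of the windows of Rps27 are its own, so the split may not be read as the makeup of ribosomes. Rpl39l and Rpl10l, which are known from testis, were at 0 in every library. None of the pairs passed. With 4 clones against 4 the smallest p of this test is 0.0286 (exact permutation), which for a single pair among 6 adjusts to 0.171, so no single pair could have passed. As single genes, Rps27l (log2 fold change -0.71, SE 0.13, edgeR adjusted p = 0.00602) and Rpl36al (-0.88, SE 0.18, adjusted p = 0.00789) fell in control clones and held under all 28 alternatives. The other copies, Rps27 (-0.42, adjusted p = 0.427) and Rpl36a (-0.70, adjusted p = 0.191), missed the threshold. Of the exon bases of Rpl36al, 63.1% are overlapped by Gm49383. Rpl7 was called lower in control clones too, a call kept by 19 of the 28 alternatives. In mutant clones Rps27l, Rpl36al, Rpl7, Rpl7l1 and Rps4x were called lower, and 27, 26, 22, 17 and 13 of the 28 kept these calls.

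The next question was whether the mutants differ from controls within a state. In ciliated clones, 0 of the 86 members and 0 of all genes (0%) were called (edgeR, 3 mutant clones against 4 control clones). At an unadjusted p under 0.05 there were 0 members and 272 genes, and DESeq2 called 1 gene higher and 2 lower, none of them a member. The members' median log2 fold change, mutant minus control, was -0.07. Mutant clones lay above all control clones for 1 member, Rpl30, and below them for 0, against 1.29% and 0.807% of all genes. The members with the smallest p were Rpl28 (log2 fold change -0.46, SE 0.30), Rpl7a (-0.45, SE 0.31) and Rpl37 (-0.45, SE 0.33), with unadjusted edgeR p of 0.154, 0.179 and 0.199. The ciliated mutant Wdr34-3 was the clone with the lowest share of all, and without it the median was 0.09. Without the libraries that stand apart the median was -0.03.

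In non-ciliated clones, 0 members and 0 of all genes (0%) were called as well (edgeR, 2 mutant clones against 4 control clones). At an unadjusted p under 0.05 there were 12 members and 516 genes, and DESeq2 called 1 gene higher and 13 lower, none of them a member. The values leaned one way all the same. The median log2 fold change of the members was 0.28, against 0.00 for all genes, 76 of the 86 lay above 0, and both mutant clones were above all 4 control clones for 35 members and below them for 0, against 7.76% of all genes in the higher and 6.32% in the lower direction. Since the 2 mutant clones are all there is, this is a description of these clones.

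Rps20, a protein of the head of the small subunit, stood at 153, 142, 135 and 121 CPM in the non-ciliated control clones AB, 1, 2 and 3 and at 193 and 221 CPM in Wdr34 and Wdr60 (log2 fold change 0.59, SE 0.16, unadjusted p = 0.00396, edgeR adjusted p = 1). Rplp2 stood at 68.2, 65.2, 81.9 and 54.7 CPM in these controls and at 129 and 128 CPM in the mutants (log2 fold change 0.93, SE 0.27, unadjusted p = 0.00498, adjusted p = 1). Rps15 stood at 639, 585, 572 and 491 CPM and at 871 and 791 CPM (log2 fold change 0.54, SE 0.17, unadjusted p = 0.00763, adjusted p = 1). All 3 genes lay without overlap, and none passed the threshold over all genes. The median was 0.17 without control clone 2 and 0.16 without both clones 2 and G7. It was 0.33 without the libraries that stand apart.

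The difference of the genotype effect between the states, tested as an interaction, gave 0 calls among members and 0 among all genes (0%). At an unadjusted p under 0.05 there were 2 members and 136 genes, and DESeq2 called 0 genes. The members' median was -0.35, against -0.01 for all genes, with 84 of 86 below 0, against 51.1% of all genes. It was -0.18 without ciliated clone Wdr34-3, -0.26 without control clone 2 and -0.36 without the libraries that stand apart. Rplp1 (log2 difference -0.58, SE 0.23), Rps15 (-0.54, SE 0.23) and Rps18 (-0.66, SE 0.30) had the smallest p (0.0280, 0.0362 and 0.0513, unadjusted). A larger state effect in the mutant than in the control clones was therefore not shown for any single gene.

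**Figure D5:**
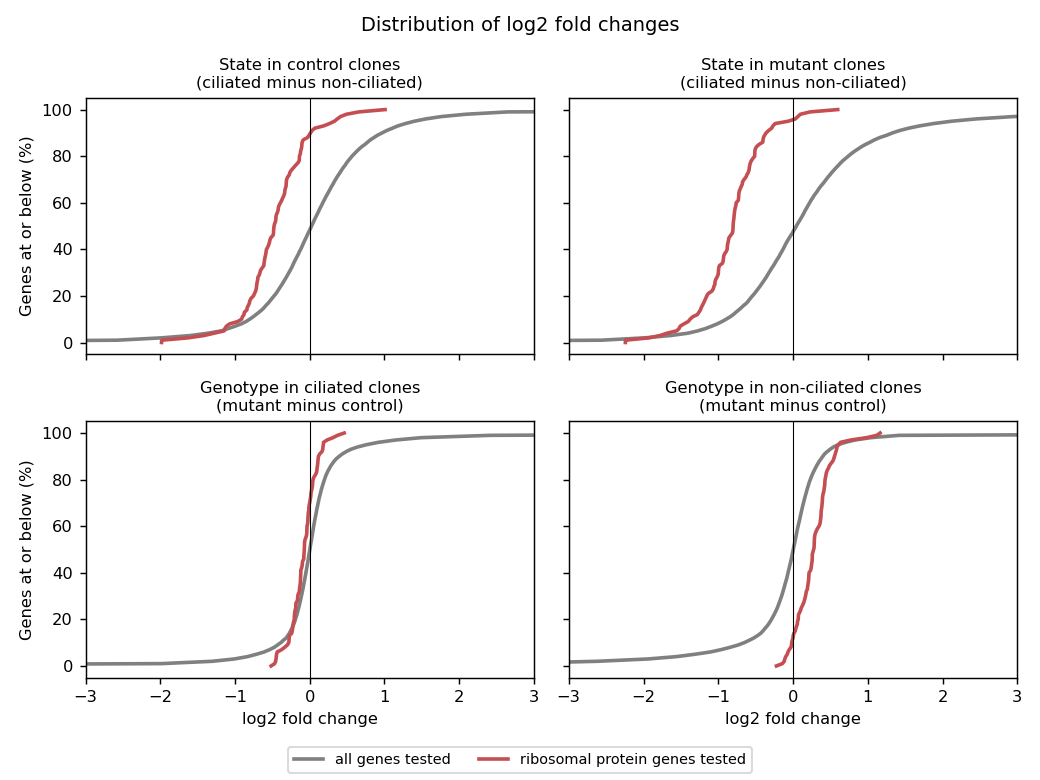
Cumulative percent of genes (vertical axis) at or below a log2 fold change (horizontal axis) for the 86 tested ribosomal protein genes and all 13994 genes tested, in the state comparisons (top) and genotype comparisons (bottom). The ribosomal protein genes lie to the left of all genes in both state comparisons (medians -0.48 and -0.80), near them in ciliated mutants against controls (-0.07) and to the right in non-ciliated mutants against controls (0.28).

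Genes around the ribosome were read from lists, whose counts of calls stand beside 9.46% of all genes called lower and 8.98% called higher in control clones and 7.53% and 5.32% in mutant clones. Of the 4 subunit genes outside the symbol pattern, 1 was called lower and 1 higher in control clones (median -0.01, range -1.26 to 0.66), and 1 lower and 0 higher in mutant clones (median -0.50). Rpsa fell in control clones (log2 fold change -1.26, SE 0.22, edgeR adjusted p = 0.00417) and in mutant clones (-1.43, adjusted p = 0.0107). Fau (0.29) and Gnb2l1 (-0.30) had an adjusted p of 0.285 each in control clones.

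Ribosome biogenesis genes gave the largest share of calls of these lists. In control clones 14 of 25 were lower and 0 higher, with a median log2 fold change of -0.78, and in mutant clones 18 were lower and 0 higher, with a median of -1.19. Dkc1, the pseudouridine synthase of ribosomal RNA, fell by 1.35 on the log2 scale (SE 0.25, edgeR adjusted p = 0.00547) in control clones. Rrn3, which brings RNA polymerase I to its promoter, fell by 0.58 (SE 0.11, adjusted p = 0.00709), and Wdr12, a factor of large-subunit maturation, fell by 1.40 (SE 0.29, adjusted p = 0.00915).

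Of 15 translation factors and other genes with a TOP motif, 6 were lower and 0 higher in control clones (median -0.43) and 7 lower and 0 higher in mutant clones (median -0.88). Eef1d (-0.97, SE 0.15, edgeR adjusted p = 0.00288) and Eef1g (-1.09, SE 0.26, adjusted p = 0.0146), subunits of elongation factor 1, and Nap1l1 (-0.78, SE 0.17, adjusted p = 0.0120), a histone chaperone, fell in control clones.

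Of 14 regulators, 2 were higher and 0 lower in control clones (median 0.03), against 8.98% of all genes called higher. Deptor, an inhibitor of mTOR, had the largest value (log2 fold change 2.83, SE 0.40, edgeR adjusted p = 0.00227), and rose in mutant clones as well (3.39, adjusted p = 0.00655). Tsc1, part of the complex that switches off Rheb, rose in control clones (0.47, SE 0.12, adjusted p = 0.0196), and the S6 kinase gene Rps6kb1 missed the threshold (-0.34, adjusted p = 0.0568). In mutant clones Deptor was the 1 regulator called higher and 0 were lower (median -0.06), and Tsc1 was at 0.31 (adjusted p = 0.193). Of 10 proliferation genes 3 were lower and 0 higher in control clones (median -0.06), namely Plk1 (-0.66, adjusted p = 0.00565), Ccnb1 (-0.36, adjusted p = 0.0387) and Top2a (-0.44, adjusted p = 0.0396). In mutant clones 2 were lower and 0 higher (median -0.11), namely Plk1 (-0.64, edgeR adjusted p = 0.0236) and Ccnb1 (-0.47, adjusted p = 0.0426), with Top2a at -0.46 (adjusted p = 0.0910). Of 6 p53 targets 1 was higher, the cell death gene Bbc3 (1.23, adjusted p = 0.00504), and 1 lower, Ccng1 (-1.56, adjusted p = 0.00844). In mutant clones Ccng1 was lower (-1.45, edgeR adjusted p = 0.0369) and 0 were higher (median 0.24), with Bbc3 at 0.83 (adjusted p = 0.0760). In the regulators and p53 targets, counts of 1 or 2 calls in so short a list are close to the share of all genes and say nothing about the list. None of the genes of these lists was called for the genotype within a state or for the interaction.

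Shared sequence, length and GC content were set beside the state difference. In control clones 2 of 17 subunit genes with under 20% of windows of their own, 12 of 36 with 20 to 60% and 3 of 22 with 60% or more were called lower and 1 of the 36 higher, with medians of -0.48, -0.56 and -0.31, where 9.46% of all genes were called lower. In mutant clones the lower calls were 2, 18 and 9, beside 7.53% of all genes, and the medians -0.88, -0.92 and -0.69. The counts of 2 and, in control clones, of 3 lie near the share of all genes. Across the 86 members, Spearman's rho of the log2 fold change in control clones was 0.18 with the share of windows of their own, 0.03 with transcript length and -0.06 with GC content. Across 13368 other genes it was 0.18 with GC content and 0.00 with length. These are descriptions over genes of the same libraries. The part of shared sequence in the size of each value was not tested.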

How the data were processed

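RNA was made into libraries with the SMARTer mRNA-Seq kit and sequenced as paired-end reads. The authors counted reads per gene with featureCounts on GRCm38 (mm10) and deposited these counts, not normalized, for 52 libraries. How strand and reads matching several genes were handled is not given in the sources used here. The members and gene lists were chosen with earlier results of these data known.

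The 4 technical replicate libraries of each clone were summed, since p-values over libraries would measure technical spread. Genes were kept by filterByExpr (13994 of 24421), scaled by TMM and fitted over 13 clones in 4 groups with edgeR 4.0.16 (quasi-likelihood, 2-sided, R 4.3.3), adjusted by Benjamini-Hochberg over all genes and called at an adjusted p under 0.05. Fold changes are edgeR's log2 values. The script was tested on simulated counts. CPM are TMM-scaled. Paralogue shares were compared by an exact permutation test over clones. Library totals of 14816218 to 28084979 counts set the precision.

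Named members were the 5 subunit genes highest per kilobase, up to 6 called members of largest fold change in each direction and comparison (or the 3 of smallest p), and a list of the stalk, Rpl5, Rpl11, Rps6 and paralogue pairs. From the other lists the 3 genes of smallest p were named. Members named outside this rule (Rps3, Rps13, Rps29, Rpl26 and the copies Rpl14, Rpl14-ps1 and Rpl37rt) were chosen after their values were seen. A few genes are not reported here by name. Transcript length and shared windows came from a single transcript per gene of GENCODE vM21, start sites from RefSeq GRCm38.p6. By the study's methods, reads were counted on an iGenomes annotation instead. Levels per kilobase and their order thus depend on the transcript chosen, and other choices were not examined. The alternatives were DESeq2 1.42.0, voomLmFit of limma 3.58.1, other scalings and filters, libraries as samples, and leaving out clones or replicate numbers.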

Additional observations from a re-analysis of the deposited data

Results flagged for a closer look

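A sample far from the 3 others of its group of 4 was found 5 times in 97 groups checked. Some checks compared the libraries of a clone and others the control clones for a gene. The checks by gene share the same clones, and named genes without a count, such as Rpl10l and Rpl39l, could not stand apart. The 5 can therefore not be set against a rate given by chance. The share of counts in ribosomal protein genes was 3.04% in replicate 1 of control clone AB, with the other libraries at 1.74 to 1.81%, and 1.43% in replicate 4 of control clone G7, with the others at 0.871 to 0.953%. Rpl35 in non-ciliated control clone 2 was at 70.9 CPM, with the other clones at 170 to 190 CPM. Rps25 in the same clone was at 62.8 CPM, with the others at 125 to 130 CPM. Rps4x in ciliated control clone G7 was at 149 CPM, with the other clones at 186 to 191 CPM. The low clones 2 and G7 are those with little Cdh1 and Epcam, and the part of this in these values was not tested.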

How the results depend on the processing

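Of 1873 values of named members under the alternatives, 1619 kept their direction and side of the threshold, 192 were no longer called, 60 were newly called and 2 reversed. The 1873 include results not called in the reported fit, such as those for the genotype and the interaction. The 192 losses could come only from results that were called there, so they are a larger part of those. In control clones the members called higher (2) became 1 with a filter of 1 count in any clone, 0 with voomLmFit, 0 with only the groups compared and 1 with a log2 fold change of at least 1, and those called lower (23) became 8 with that fold. In mutant clones those called lower (34) became 22 with library size alone, 19 with only the groups compared and 18 with a log2 fold change of at least 1. With 52 libraries as samples, which are technical replicates, the lower calls were 61 and 74, beside 3768 and 3639 of 12544 genes, and 12 members were called higher in non-ciliated mutant clones, beside 594 genes. With a replicate block beside the libraries the numbers were 62, 75 and 10. The replicate numbers do not pair the samples (mean r of same-numbered deviations -0.00610, and 10 of 52 libraries closest to their own number). Leaving out each clone gave 0 to 2 members higher and 10 to 32 lower in control clones and 1 to 40 lower in mutant clones; leaving out each replicate number gave 0 to 2, 15 to 30 and 23 to 38. Over clones and replicate numbers left out, the Rpl22l1 value in mutant clones ran from -0.63 to 0.0023 and that of Rps15 in control clones from -0.35 to 0.045, neither called. Subunit genes alone had shares of 1.58% in non-ciliated and 1.11% in ciliated control clones, and of 1.96% in non-ciliated and 1.11% in ciliated mutant clones. DESeq2 called 30 members lower in control and 45 in mutant clones, beside 1715 and 1486 of 18491 genes. An alternative without mitochondrial genes was not run, as the files hold no such symbols, and the interaction has no fit with only the groups compared. The causes of these changes were not tested.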
